A study of Mus musculus with 8 samples.

Results

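Radial glia are the neural stem cells of the embryonic cerebral cortex. Their cell bodies lie along the ventricle and their long processes reach the outer surface, so that they both divide to give neurons and guide those neurons outward. They are recognised by intermediate filament proteins, by SOX transcription factors, by a lipid carrier and a glutamate transporter that astrocytes also use, and by proteins of the apical membrane and the cell surface. The genes described here are a list of 10 such markers taken by symbol, namely Nes, Vim, Sox2, Sox9, Fabp7, Slc1a3, Prom1, Hopx, Ptprz1 and Tnc. Each symbol matched 1 of the 27179 genes of the deposited table. All 10 were among the 16074 genes left after the filter on low counts.

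The samples were embryonic cerebral cortex from 4 Taf8-deleted embryos, labelled Taf8 -/lox, and 4 Taf8-intact embryos, labelled Taf8 +/+, with 1 RNA sequencing library per embryo. TAF8 is a subunit of TFIID, the general factor that binds core promoters and helps to load RNA polymerase II. The labels give neither the embryonic stage nor the recombinase acting on the loxP-flanked allele. All but 1 of the intact embryos share the part of the animal number before the point, whereas each deleted embryo has its own, and the genotype and whatever that number marks cannot be told apart. Libraries held 39590959 to 44788200 counts. Taf8 itself was at 0.318 to 0.657 CPM (counts scaled to a common library size with TMM factors) in deleted cortex and at 29.7 to 34.7 CPM in intact cortex. Of the 10 radial glia genes, 9 exceeded 50 CPM in every library, and Hopx lay between 6.33 and 8.49 CPM. Intact replicate 3 lay at the edge of its group for all 8 of the radial glia genes that passed the test, and results are given with and without it. In whole tissue, fewer cells of a type and less RNA per cell cannot be told apart, which holds for every level given here.

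The radial glia genes moved in opposite directions. In Taf8-deleted cortex Nes, Vim, Sox9 and Hopx rose, Fabp7, Slc1a3, Ptprz1 and Tnc fell, and Sox2 and Prom1 did not pass the test. A gene was called when edgeR's quasi-likelihood test gave it a Benjamini-Hochberg adjusted p under 0.05. Of all genes tested 63.5% were called, 30.6% higher and 32.9% lower in deleted cortex, so 4 rises and 4 falls among 10 genes are near the background. The median log2 fold change was 0.06 over the 10 genes and 6.31e-05 over all genes tested. The CPM values of the groups did not overlap for 7 of the 10 genes, against 57.7% of all genes tested. The members at the ends of the range were Nes and Tnc: 12.4% of all genes tested had a larger absolute log2 fold change than Nes and 11.3% had a larger one than Tnc. By contrast, Hopx, Sox2 and Prom1 lay within the middle 50% of all log2 fold changes, between -0.27 and 0.27.

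**Figure D1:**
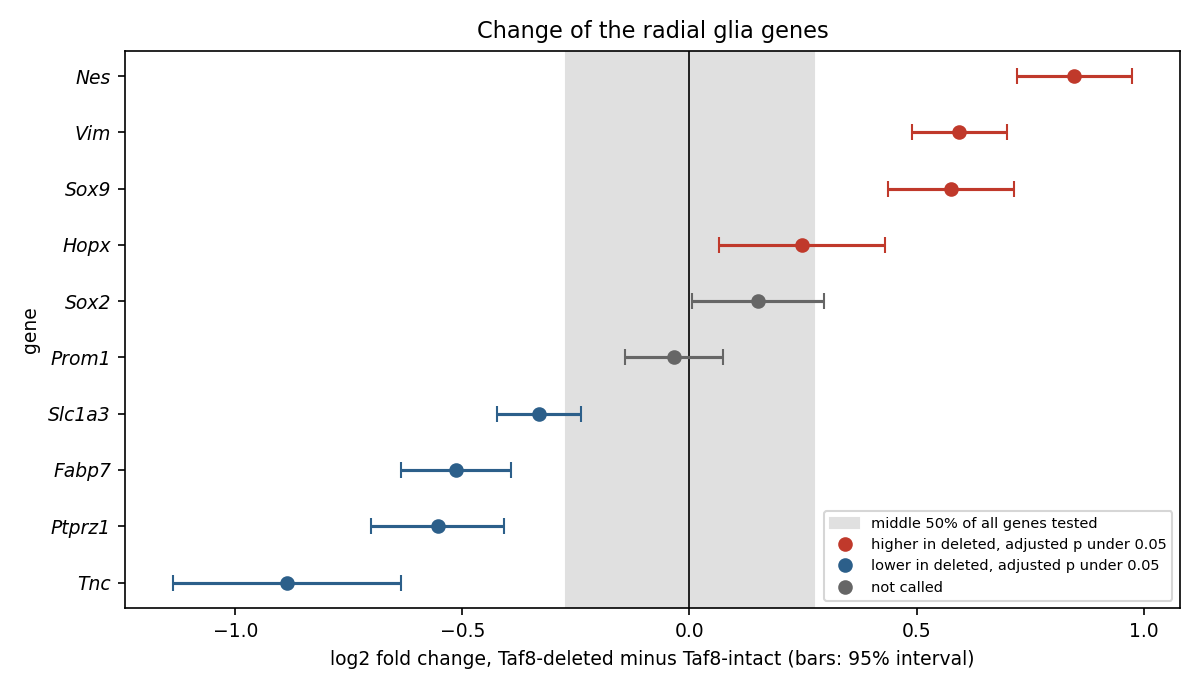
Log2 fold change of each radial glia gene (x axis, Taf8-deleted minus Taf8-intact, bars 95% interval) by gene (y axis), over a grey band that holds the middle 50% of all genes tested. Nes at 0.85 and Tnc at -0.89 lie at the ends, and the intervals of Nes, Vim, Sox9, Fabp7, Ptprz1 and Tnc lie outside the band.

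Because TFIID works at core promoters, the promoters of members that rose and of members that fell were read. RefSeq promoter windows of assembly GRCm38.p6 were found for 9 of the 10 genes, 12 windows in all, each holding 250 bases before to 50 bases after a transcription start. The windows of Nes and Vim, which rose, and of Fabp7 and Ptprz1, which fell, are shown on the gene's strand, with the start just after the first 250 bases. Capitals mark matches on either strand to 4 short motifs. The first is the core promoter element spelled TATAAA. The second, known from many cell cycle genes, is spelled CCAAT. The third is the GC box of SP factors, with the letters GGGCGG. The last is the core of sites bound by SOX factors, here searched as ACAAT. The Nes window is chr3:87970843-87971142, the Vim window chr2:13574061-13574360, the Fabp7 window chr10:57784673-57784972 and the Ptprz1 window chr6:22875252-22875551, all on the plus strand.
Nes: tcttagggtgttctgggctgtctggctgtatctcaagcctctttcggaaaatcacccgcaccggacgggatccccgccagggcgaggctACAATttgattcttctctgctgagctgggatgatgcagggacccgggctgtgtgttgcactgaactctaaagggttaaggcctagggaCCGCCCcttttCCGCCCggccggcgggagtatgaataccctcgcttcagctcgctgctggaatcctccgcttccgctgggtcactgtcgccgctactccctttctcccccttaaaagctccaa
Vim: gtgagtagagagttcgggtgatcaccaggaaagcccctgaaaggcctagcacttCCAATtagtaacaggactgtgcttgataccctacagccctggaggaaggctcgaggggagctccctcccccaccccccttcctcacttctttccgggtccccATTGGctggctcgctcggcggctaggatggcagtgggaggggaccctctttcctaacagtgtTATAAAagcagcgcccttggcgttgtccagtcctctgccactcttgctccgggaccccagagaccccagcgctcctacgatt
Fabp7: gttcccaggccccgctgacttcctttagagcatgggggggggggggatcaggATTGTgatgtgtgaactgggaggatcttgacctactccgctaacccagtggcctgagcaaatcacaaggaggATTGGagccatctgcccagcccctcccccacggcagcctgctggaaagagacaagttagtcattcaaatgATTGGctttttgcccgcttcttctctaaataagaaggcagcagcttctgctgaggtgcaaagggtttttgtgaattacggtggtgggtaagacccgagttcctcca
Ptprz1: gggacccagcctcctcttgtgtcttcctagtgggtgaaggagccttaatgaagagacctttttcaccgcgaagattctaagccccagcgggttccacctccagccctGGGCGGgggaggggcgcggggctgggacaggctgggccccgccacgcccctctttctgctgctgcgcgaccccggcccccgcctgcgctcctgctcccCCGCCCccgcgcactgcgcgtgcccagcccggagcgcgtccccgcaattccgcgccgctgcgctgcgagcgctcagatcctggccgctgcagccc

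Vim was the only one of the 9 genes with TATAAA between 40 and 11 bases before a start on its own strand, beginning 32 bases before it. That placement was found in 1.24% of the 15446 windows of tested genes. Only this exact spelling was searched, so variants such as tatataag, in 1 of the Tnc windows shortly before its start, were not counted. TATAAA at any place and on either strand was also found in Slc1a3 and Tnc, which fell, against 7.54% of all such windows, and the Tnc match overlaps a reverse ACAAT by 1 base. The Nes window held GGGCGG at 2 places, 73 and 62 bases before the start, and the Ptprz1 window also held it at 2 places. It was found in Sox2, Slc1a3, both Tnc windows and 1 of the Prom1 windows as well, whereas Vim, Fabp7 and Hopx had none. Of the windows of tested genes 60.3% hold it. CCAAT was found at 2 places in both Vim and Fabp7, at 3 places in Slc1a3 and at none in Nes, Ptprz1 or Tnc. It was also found in Sox2, both Hopx windows and 1 of the Prom1 windows, against 37.5% of windows that hold it at least once. ACAAT was found in Nes, Fabp7, Slc1a3, Tnc and 1 of the Hopx windows, against 20.8% of windows. These shares count windows, and Prom1, Hopx and Tnc have 2 windows each. Each of the 4 motifs was found both in members that rose and in members that fell. No window was found for Sox9, which rose. Whether the promoters of these few members differ by direction was not tested. These are matches of letters, not sites shown to be bound.

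Both filament genes rose. Nes encodes nestin, a large intermediate filament protein of neural stem cells, and lies on chromosome 3 at 87971093 to 87980451 (GRCm38, gene ID 18008). Its level was 1195.3, 1243.8, 1196.5 and 1274.5 CPM in deleted replicates 1 to 4, against 743, 720, 604 and 662 CPM in intact replicates 1 to 4. The lowest deleted embryo was far above the highest intact one, and the deleted embryos were the tighter group. The log2 fold change was 0.85 ± 0.06 (SE, n = 4 each, edgeR adjusted p = 2.42e-07), a 1.7995-fold ratio of mean CPM. Vim encodes vimentin, a filament partner of nestin that endothelial and mesenchymal cells also make (chromosome 2, 13574311 to 13582826, gene ID 22352). It was at 868, 947, 927 and 896 CPM in deleted cortex and at 627, 636, 546 and 600 CPM in intact cortex. The groups were again apart, with intact replicate 3 the lowest, as for Nes. Vim rose by 0.59 ± 0.05 on the log2 scale (SE, adjusted p = 4.65e-07 in edgeR's test).

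The SOX factor genes differed from each other. Sox9, whose product maintains neural stem cells and precedes glial fate, lies on chromosome 11 at 112782210 to 112787757 (gene ID 20682). It was at 186, 198, 202 and 176 CPM in deleted cortex and at 132, 134, 112 and 133 CPM in intact cortex. No deleted embryo came within the intact range, and the log2 fold change was 0.58 ± 0.06 (SE, adjusted p = 1.14e-05 in edgeR's test). Sox2, a core factor of neural stem cell identity (chromosome 3, 34649995 to 34652461, gene ID 20674), was at 222, 244, 230 and 222 CPM in deleted cortex. Its intact values were 216, 226, 178 and 206 CPM, so the groups overlapped, and 2 of the 4 deleted embryos exceeded the highest intact one. The log2 difference was 0.15, with a 95% interval from 0.01 to 0.30 that is not adjusted for the number of genes, and adjusted p = 0.0657 in edgeR's test. Without intact replicate 2 it was called at 0.21 (adjusted p = 0.0178), and its adjusted p ran from 0.0178 to 0.338 over all alternatives. It was also called with upper-quartile factors (adjusted p = 0.0190), library totals (adjusted p = 0.0189), a filter of CPM above 1 in 4 libraries (adjusted p = 0.0342) and DESeq2 (adjusted p = 0.0290). Sox2 lies within the span of the long non-coding gene Sox2ot, which had 1881 to 2956 counts in deleted and 2005 to 3243 counts in intact libraries. The libraries were unstranded, so shared reads cannot be told apart.

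The lipid carrier and the glutamate transporter fell. Fabp7 encodes the brain fatty acid binding protein, also called brain lipid binding protein (chromosome 10, 57784923 to 57788450, gene ID 12140). It was at 261, 296, 279 and 323 CPM in deleted cortex, against 413, 419, 422 and 401 CPM in intact cortex. The intact embryos agreed to within 2.19% (coefficient of variation) and the deleted ones spread by 9.13%, yet the groups stayed apart. Fabp7 fell by 0.51 ± 0.06 on the log2 scale (SE, adjusted p = 8.10e-06 in edgeR's test). Slc1a3 encodes GLAST, the glutamate and aspartate transporter of radial glia and astrocytes (chromosome 15, 8634124 to 8710807, gene ID 20512). Its values were 107, 119, 122 and 113 CPM in deleted and 143, 141, 150 and 145 CPM in intact cortex, without overlap. The fall was 0.33 ± 0.04 on the log2 scale (SE, adjusted p = 2.71e-05 in edgeR's test), the smallest of the 4 falls.

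The surface receptor Ptprz1 and its matrix ligand Tnc fell as well. Ptprz1 encodes a receptor tyrosine phosphatase and chondroitin sulphate proteoglycan (chromosome 6, 22875315 to 23052916, gene ID 19283). Deleted cortex had 351, 321, 332 and 396 CPM and intact cortex had 505, 540, 540 and 472 CPM. The highest deleted embryo, replicate 4, stayed below the lowest intact one, and the fall was 0.55 ± 0.07 on the log2 scale (SE, adjusted p = 3.04e-05 in edgeR's test). Tnc encodes tenascin-C, an extracellular matrix glycoprotein that binds this receptor (chromosome 4, 63959785 to 64047015, gene ID 21923). It was at 57.5, 60.4, 58.6 and 56.4 CPM in deleted cortex and at 97.0, 101, 135 and 97.5 CPM in intact cortex. All deleted embryos lay close together, while intact replicate 3 stood above the rest of its group. Tnc fell by 0.89 ± 0.11 on the log2 scale (SE, adjusted p = 1.40e-04 in edgeR's test), and by 0.75 without intact replicate 3 (adjusted p = 3.89e-09).

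The apical membrane gene Prom1 did not pass the test, and the outer radial glia gene Hopx had the smallest of the 4 rises. Prom1 encodes prominin 1, a glycoprotein of membrane protrusions at the ventricular surface (chromosome 5, 43993621 to 44102047, gene ID 19126). It was at 89.5, 87.5, 87.4 and 97.5 CPM in deleted and at 100.1, 94.3, 87.7 and 88.5 CPM in intact cortex. The groups overlapped, and the log2 difference was -0.03 with a 95% interval from -0.14 to 0.07 (adjusted p = 0.558 in edgeR's test). Its sign depended on the scaling, being 0.02 with upper-quartile factors and 0.03 with library totals. Hopx encodes a homeodomain protein that does not bind DNA itself and is known from outer radial glia of the human cortex (chromosome 5, 77086986 to 77115123, gene ID 74318). Its counts were 355, 374, 362 and 275 in deleted and 280, 300, 260 and 273 in intact libraries, and its values were 7.78, 8.49, 8.18 and 6.86 CPM against 6.51, 7.07, 6.33 and 6.47 CPM. Deleted replicate 4 lay within the intact range. Hopx rose by 0.25 ± 0.08 on the log2 scale (SE, adjusted p = 0.0212 in edgeR's test). Leaving out deleted replicate 2 (adjusted p = 0.0595) or deleted replicate 3 (adjusted p = 0.05001) ended the call, and with both left out the difference was 0.15 (adjusted p = 0.239, the highest over all alternatives, with 0.00514 the lowest). Ptprz1, Tnc and Hopx also share stretches with other genes in the annotation, and unstranded reads there could belong to either.

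**Figure D2:**
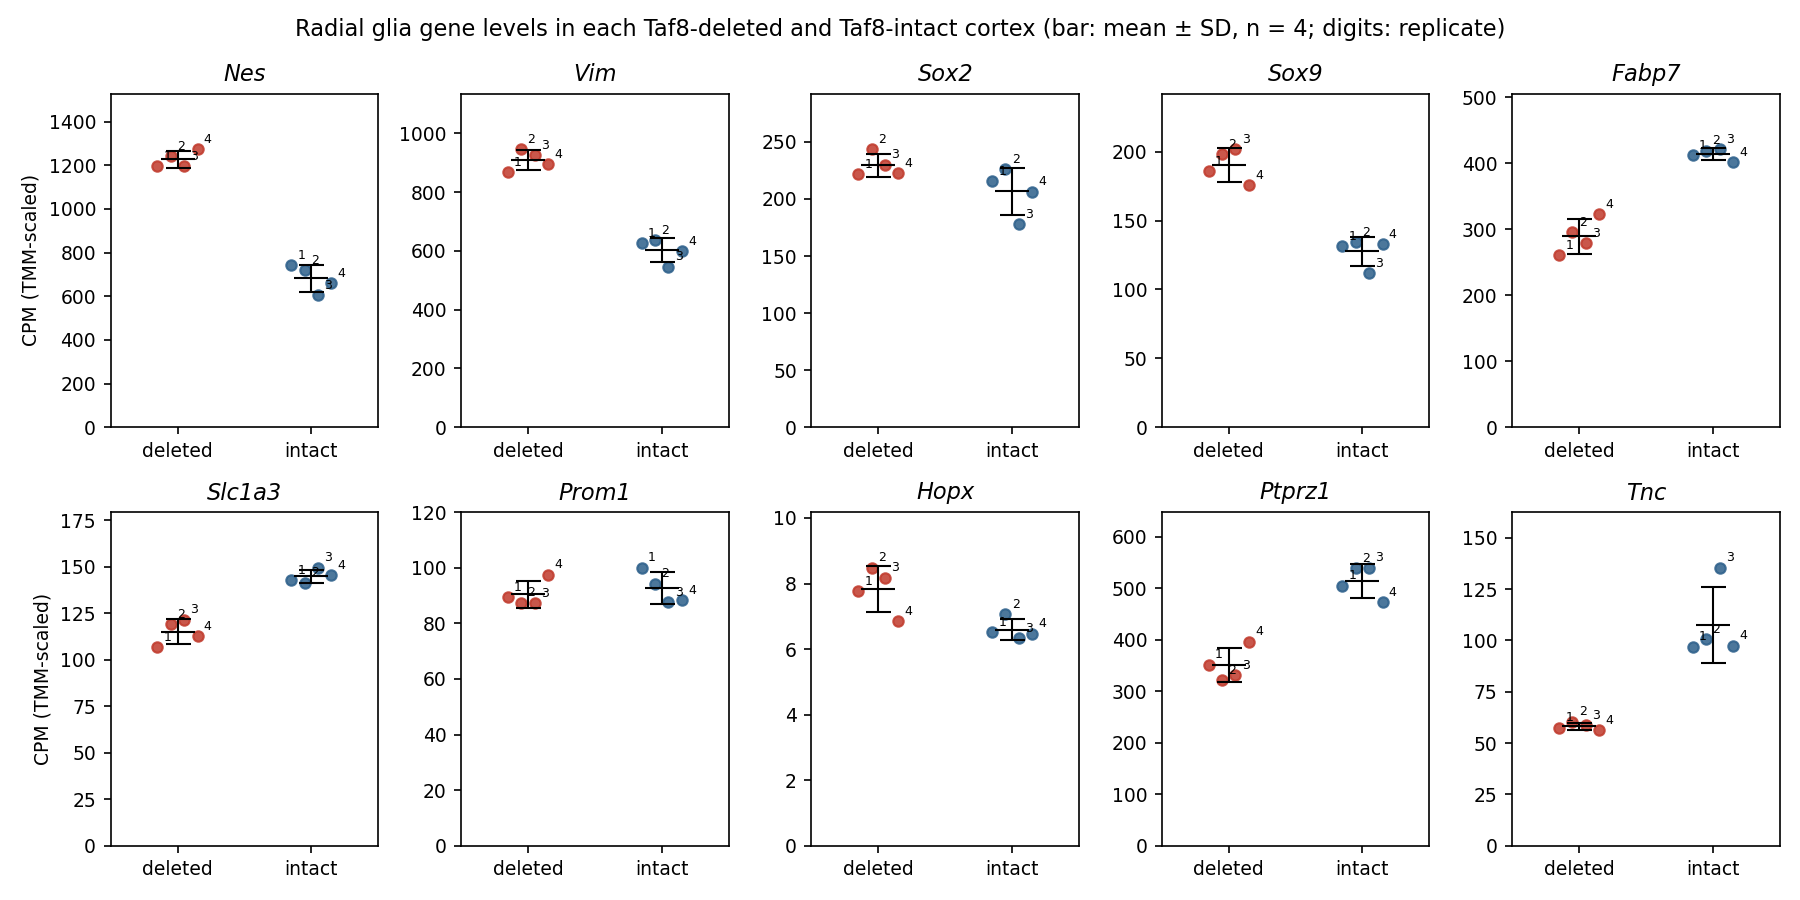
Level of each radial glia gene (y axis, TMM-scaled CPM from 0) in the 4 Taf8-deleted and 4 Taf8-intact cortices (x axis), with points for embryos, digits for replicate numbers and bars for mean ± SD. Nes, Vim and Sox9 lie higher and Fabp7, Slc1a3, Ptprz1 and Tnc lower in all deleted embryos, while Sox2, Prom1 and Hopx overlap.

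Per length of gene model, the order of the members changed at the top. On the scale of RPKM, which divides CPM by the length of the gene model in kilobases, Vim led in deleted cortex with 496 ± 18.9 and Fabp7 followed with 380 ± 34.7 (SD, n = 4). In intact cortex Fabp7 led with 543 ± 11.9 RPKM and Vim followed with 328 ± 22.0. In both groups Nes and Sox2 came next, Nes at 200.4 ± 6.30 RPKM in deleted and 111 ± 10.1 in intact cortex, and Sox2 at 93.4 ± 4.16 RPKM in deleted and 84.1 ± 8.43 in intact cortex. Sox9 stood at rank 5 in deleted cortex, with 45.9 ± 2.89 RPKM against 43.4 ± 4.09 for Ptprz1, and their ranges overlapped. In intact cortex Sox9 was at rank 7 with 30.8 ± 2.58 RPKM, below Ptprz1 at 63.7 ± 4.01 and Slc1a3 at 34.4 ± 0.844. Prom1, Tnc and Hopx closed the order in both groups, with Hopx at 5.18 ± 0.468 RPKM in deleted and 4.37 ± 0.216 in intact cortex. Apart from Sox9 and Ptprz1 in deleted cortex, no neighbours in either order had overlapping ranges. Summed over the 10 genes, the level was 3468 ± 96.5 CPM in deleted and 2899 ± 119 CPM in intact cortex (SD, n = 4 each). Nes made up 35.4% ± 0.479 of that sum in deleted and 23.5% ± 1.32 in intact cortex, and Vim 26.2% ± 0.836 and 20.8% ± 0.760. By contrast, the share of Fabp7 was 8.34% ± 0.543 in deleted and 14.3% ± 0.610 in intact cortex. With 4 members called higher and 4 called lower, the higher sum did not hold across the list.

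The ratio of 2 genes within a library does not depend on library scaling, and 8 such pairs were compared with an exact two-sided permutation test, in which 4 against 4 embryos cannot give a p below 0.0286. The ratio of Nes to Fabp7 reads was 4.58, 4.20, 4.29 and 3.94 in deleted libraries and 1.799, 1.72, 1.43 and 1.65 in intact libraries. The log2 difference was 1.37. Vim to Fabp7 was at 2.77 to 3.32 in deleted and 1.30 to 1.52 in intact libraries, a log2 difference of 1.11. Since Nes and Vim were higher and Fabp7 lower without overlap, both ratios had to separate the groups, and their test adds nothing to the calls above. The filament genes also differed from each other, with Nes to Vim at 1.29 to 1.42 in deleted and 1.103 to 1.19 in intact libraries, a log2 difference of 0.26 without overlap. Sox9 to Sox2 was 0.790 to 0.877 in deleted and 0.594 to 0.643 in intact libraries, a log2 difference of 0.42 without overlap. Hopx rose relative to Tnc by 1.12 on the log2 scale, and Prom1 fell relative to Nes by 0.89. Tnc and Nes were far apart between the groups while Hopx and Prom1 changed little. The ratios of Hopx to Tnc and of Prom1 to Nes therefore also had to separate the groups, and their test adds nothing. For Nes to Vim and Sox9 to Sox2 the exact permutation p was 0.0286 each, and adjusted over the 8 pairs 0.0381. The pairs that had to separate are among these 8 and lower that adjusted p, so no call is drawn from it.

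Genes that fell together were not shown to differ in their fall. Slc1a3 to Fabp7 was at 0.349 to 0.436 in deleted and 0.337 to 0.362 in intact libraries, which overlap (log2 difference 0.19, exact permutation p = 0.0857, adjusted p = 0.0857). Ptprz1 to Tnc was at 5.32 to 7.03 in deleted and 3.99 to 5.37 in intact libraries, also overlapping (log2 difference 0.32, exact permutation p = 0.0571, adjusted p = 0.0653). Neither p shows that the genes of these pairs changed equally.

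**Figure D3:**
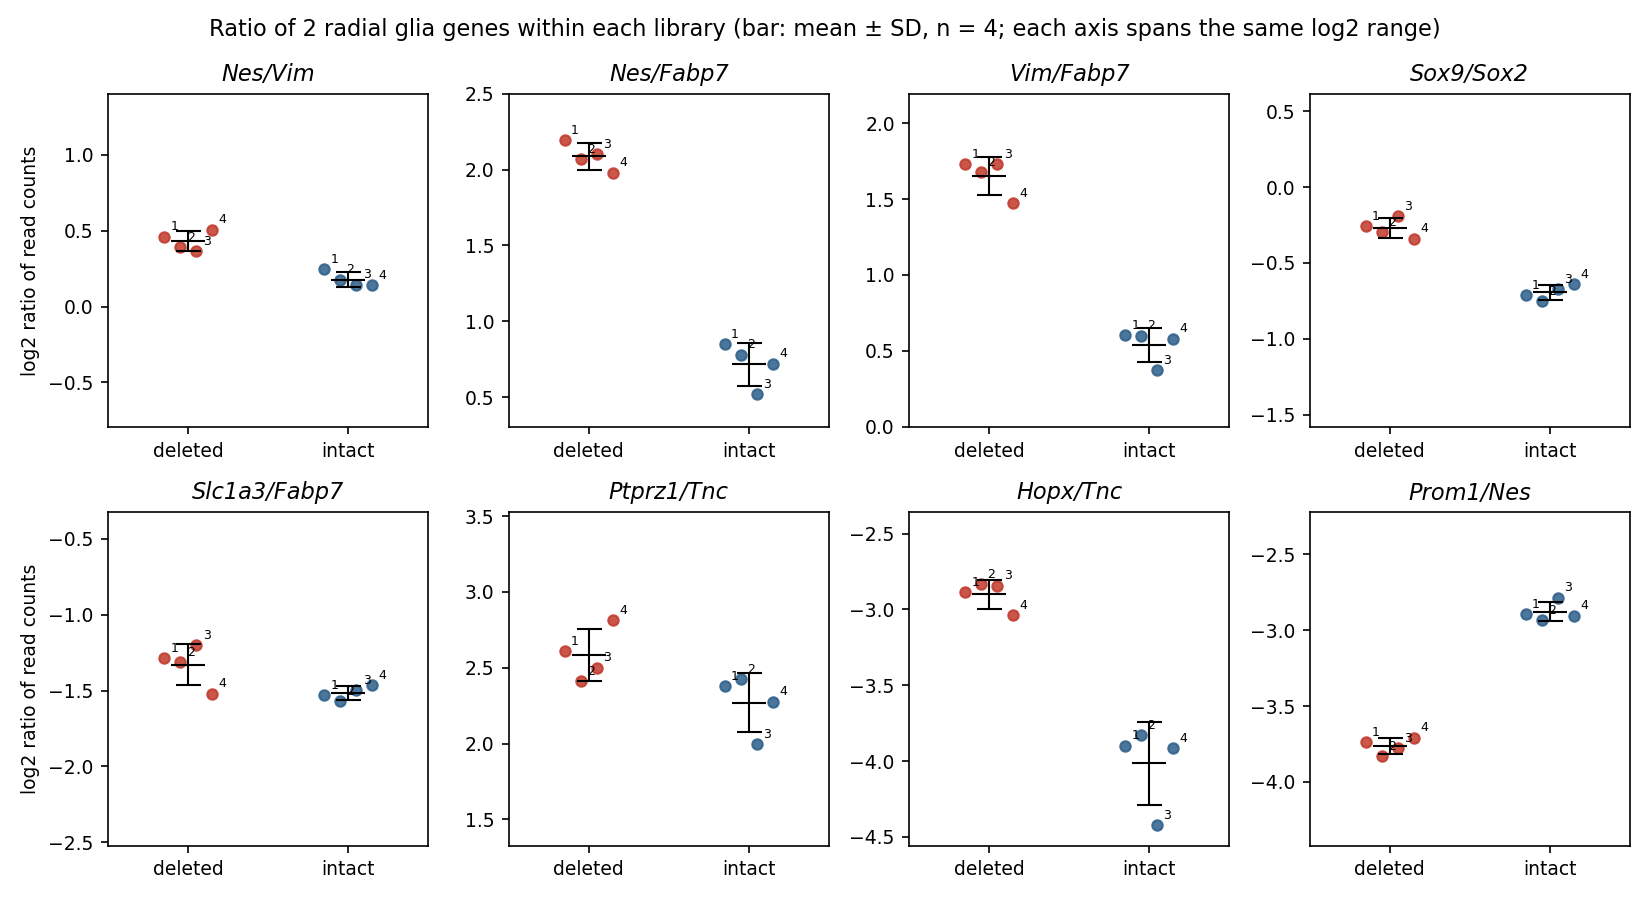
Log2 ratio of read counts of 2 radial glia genes in the same library (y axis, same span in each panel) for Taf8-deleted and Taf8-intact cortices (x axis), with points for embryos, digits for replicate numbers and bars for mean ± SD. The ratios of Nes and Vim to Fabp7 and of Hopx to Tnc are higher in every deleted embryo, by 1.37, 1.11 and 1.12 on the log2 scale, and Slc1a3 to Fabp7 and Ptprz1 to Tnc overlap.

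One intact library stood apart in these genes. Intact replicate 3 had the lowest intact level of all 4 members that rose and the highest of all 4 that fell, which puts it furthest from the deleted embryos in each. It also had the highest summed level of 12 markers of postmitotic neurons, at 9490 CPM against 8556 to 8797 CPM in the other intact libraries. Without it Nes, Vim and Sox9 rose by 0.80, 0.56 and 0.52 on the log2 scale, and Fabp7, Slc1a3 and Ptprz1 fell by 0.50, 0.31 and 0.52, all called by edgeR's test with adjusted p of at most 3.41e-04. Hopx was also still called, at 0.23 (adjusted p = 0.0419).

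Of 20 transcription factors known to act in radial glia, 10 rose and 8 fell, and the median over all 20 was 0.18 on the log2 scale. The share called was 90.0%, against 63.5% of all genes tested. Sox3, a close relative of Sox2, rose to 157 ± 16.6 CPM in deleted cortex, against 69.95 ± 6.83 CPM in intact cortex (SD, n = 4 each, log2 fold change 1.17 ± 0.09 SE, adjusted p = 2.62e-06 in edgeR's test). The nuclear factor I genes Nfib and Nfia, which promote the switch of radial glia to gliogenesis, fell by 0.64 ± 0.06 and 0.48 ± 0.05 on the log2 scale. Nr2f1, an areal patterning factor, fell by 0.44 ± 0.04. Pax6, a defining factor of cortical radial glia that falls outside the naming rule and was picked with its values known, averaged 162 CPM in deleted and 116 CPM in intact cortex, and rose by 0.48 ± 0.07. Nfib, Nfia, Nr2f1 and Pax6 overlap other annotated genes.

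Across the SOX family the direction differed by member. Of 11 other Sox genes tested, 4 rose and 6 fell, with a median of -0.10 and a share called of 90.9%, against 63.5% of all genes tested. Among genes expressed in neural progenitors, Sox3 rose by 1.17 ± 0.09, Sox21 by 0.47 ± 0.06 and Sox1 by 0.18 ± 0.06 (log2, SE), and Sox13 rose by 0.77 ± 0.08. Sox12, Sox11 and Sox4, of the subgroup active in differentiating neurons, fell by 0.71 ± 0.03, 0.27 ± 0.04 and 0.10 ± 0.03. The call of Sox4 was lost with library totals (adjusted p = 0.289), with upper-quartile factors (adjusted p = 0.226), and when deleted replicate 1 (adjusted p = 0.0701) or 4 (adjusted p = 0.0629) was left out, and that of Sox1 when leaving out deleted replicate 1 (adjusted p = 0.0515) or 2 (adjusted p = 0.0537). Sox8 and Sox10, the relatives of Sox9 known from glia, fell by 0.36 ± 0.05 and 0.95 ± 0.24, the opposite of Sox9. Sox10 was rare, at 0.838 CPM in deleted and 1.62 CPM in intact cortex on average. Sox5, a factor of deep-layer neurons, fell by 1.15 ± 0.06, and Sox6 had a log2 difference of 0.04 ± 0.04 (adjusted p = 0.334 in edgeR's test), though it was called higher with upper-quartile factors (adjusted p = 0.0345) and library totals (adjusted p = 0.0311). Sox1, Sox4, Sox5, Sox6 and Sox21 overlap other annotated genes.

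Of 13 further intermediate filament genes and linkers, 4 rose and 4 fell, with a median of -0.07, and the share called, 61.5%, is near that of all genes tested. The neurofilament gene Nefm and the lamin gene Lmnb2 rose by 0.69 ± 0.05 and 0.38 ± 0.04 on the log2 scale. Prph, encoding peripherin, and Synm, encoding synemin, fell by 1.30 ± 0.19 and 0.37 ± 0.07. Prph was rare, at 0.958 CPM in deleted and 2.37 CPM in intact cortex on average. Also called lower were Ina and the neurofilament gene Nefl, the opposite of Nefm. Among relatives of Fabp7, Fabp5 rose by 0.42 ± 0.05, the opposite of Fabp7, and was at 32.5 CPM in deleted and 24.2 CPM in intact cortex on average. Fabp3 fell by 0.68 ± 0.15 and was at 2.04 CPM in deleted and 3.28 CPM in intact cortex. Fabp4 did not pass the filter on low counts. Nefm, Ina and Fabp3 overlap other annotated genes.

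In the glutamate transporter family the other glial transporter fell with Slc1a3, whereas the enzyme genes Glul and Glud1 rose. Slc1a2, the main glutamate transporter of astrocytes, fell by 0.38 ± 0.06 and the neuronal Slc1a1 by 0.32 ± 0.06 on the log2 scale. Glul, the glutamine synthetase gene, rose to 185 ± 3.82 CPM in deleted cortex, against 113 ± 2.16 CPM in intact cortex (SD, n = 4 each, adjusted p = 4.40e-09 in edgeR's test). The glutamate dehydrogenase gene Glud1 rose by 0.20 ± 0.03 on the log2 scale, and the neutral amino acid transporter gene Slc1a5 by 1.29 ± 0.20. Slc1a6 fell by 0.45 ± 0.15, a call lost without deleted replicate 2 (adjusted p = 0.0525), intact replicate 3 (adjusted p = 0.0751) or intact replicate 4 (adjusted p = 0.0673). Slc1a4 had a log2 difference of 0.14 ± 0.06 (adjusted p = 0.0568) and was called in 11 of 19 alternatives. These include upper-quartile factors (adjusted p = 0.0124), library totals (adjusted p = 0.0130), DESeq2 (adjusted p = 0.0311), the replicate block (adjusted p = 0.0175), and leaving out deleted replicate 1 (adjusted p = 0.0256), intact replicate 3 (adjusted p = 0.0313) or intact replicate 4 (adjusted p = 0.0212). Glul, Slc1a1, Slc1a2 and Slc1a6 overlap other annotated genes.

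Of 22 genes tested for ligands, receptors and matrix partners of Ptprz1 and Tnc, 9 fell and 4 rose, with a median of -0.17. The share called, 59.1%, is near the 63.5% of all genes tested. Midkine, a ligand of Ptprz1 encoded by Mdk, fell by 0.45 ± 0.06 on the log2 scale. Tnr, encoding tenascin-R, fell by 1.07 ± 0.14, and Bcan, encoding the tenascin-binding proteoglycan brevican, by 1.13 ± 0.14. Egfr, the receptor for epidermal growth factor, which Tnc is known to influence in neural stem cells, was at 1.503 ± 0.263 CPM in deleted and 4.38 ± 0.642 CPM in intact cortex (SD, n = 4 each) and fell by 1.54 ± 0.15. In the other direction, Ncan, encoding the proteoglycan neurocan, rose by 0.32 ± 0.07 and the integrin gene Itgb1 by 0.10 ± 0.04. The number of rises was 2 without intact replicate 1, 3 or 4 and 1 with replicate number as a block, and the Itgb1 call was lost without deleted replicate 2 (adjusted p = 0.0596) or 3 (adjusted p = 0.0681) and intact replicate 1 (adjusted p = 0.0687) or 3 (adjusted p = 0.0588). Mdk, Tnr, Egfr and Ncan overlap other annotated genes.

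Genes of the apical junctions that hold radial glia together at the ventricle, and genes known from outer radial glia, had medians near 0. Of 20 junction and polarity genes, 4 rose and 6 fell, with a median of -0.06 and a share called of 50%. Over all genes tested 63.5% were called, 30.6% higher and 32.9% lower. Ctnnb1, encoding beta-catenin, rose by 0.29 ± 0.03 on the log2 scale and the apical determinant Crb2 by 0.79 ± 0.07, while Patj, of the Crumbs complex, fell by 0.59 ± 0.07 and the planar polarity cadherin gene Celsr1 by 0.38 ± 0.05. Of 12 outer radial glia genes, known mainly from human cortex, 4 rose and 3 fell, with a median of -0.06. The share called, 58.3%, is near the 63.5% of all genes tested. Gli3, a hedgehog pathway factor, and the receptor gene Lifr rose by 0.35 ± 0.05 and 0.23 ± 0.07, and Stat3 and Moxd1 fell by 0.35 ± 0.04 and 1.13 ± 0.19. Without deleted replicate 3 the number of rises was 2. Moxd1 was rare, at 0.836 CPM in deleted and 1.84 CPM in intact cortex on average. Ctnnb1, Crb2, Patj, Gli3 and Stat3 overlap other annotated genes.

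**Figure D4:**
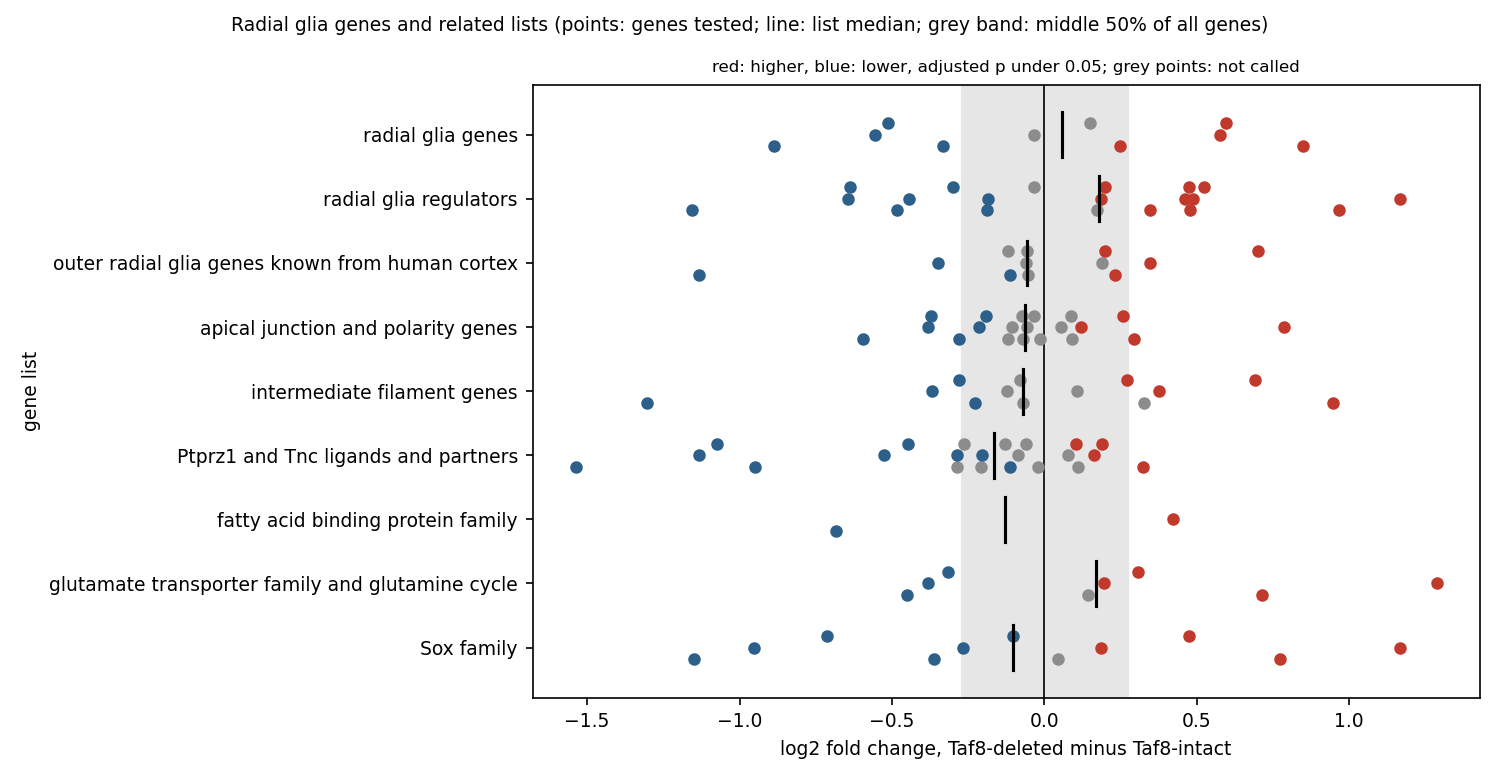
Log2 fold change of every tested gene (x axis, Taf8-deleted minus Taf8-intact) in the radial glia list and 8 related lists (y axis), with a line for each list median and a grey band for the middle 50% of all genes tested. Every list holds genes on both sides of 0, with medians from -0.17 to 0.18.

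Markers of other cell types moved between the groups as well. For comparison with the counts below, 30.6% of all genes tested were called higher and 32.9% lower in deleted cortex. Neuronal markers were lower: 11 of 12 fell, and their summed level was 6353 to 6933 CPM in deleted and 8556 to 9490 CPM in intact cortex. Markers of intermediate progenitors, the daughters of radial glia, summed to 1196 to 1293 CPM in deleted and 1038 to 1181 CPM in intact cortex, without overlap. Of these 10 genes 5 rose and 4 fell, and the rises were led by the Notch ligand gene Dll1 at 0.91 ± 0.06 on the log2 scale. The 4 that fell were Sstr2, Mfng, Insm1 and Eomes, so the higher sum did not hold across the list. Of 8 markers of dividing cells, 4 fell, with a summed level of 1758 to 1854 CPM in deleted and 1729 to 2065 CPM in intact cortex. Astrocyte markers, which include genes that radial glia share, summed to 362 to 407 CPM in deleted and 465 to 488 CPM in intact cortex, with 1 of 7 tested higher and 5 lower. Markers of oligodendrocyte precursors summed to 71.8 to 86.9 CPM in deleted and 85.02 to 92.4 CPM in intact cortex, with 1 of 8 higher and 5 lower. The part of these shifts in the levels of the radial glia genes was not tested.

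Markers of vascular and meningeal cells, which also make vimentin and in part nestin, were higher in deleted cortex. Of 11 endothelial markers 8 rose, whereas 30.6% of all genes tested were called higher. Their summed level was 199 to 249 CPM in deleted and 173 to 183 CPM in intact cortex. Of 9 pericyte markers 8 rose, at 243 to 284 CPM in deleted and 203 to 224 CPM in intact cortex. Meningeal markers summed to 161, 200.3, 236 and 74.9 CPM in deleted and to 58.5, 52.0, 48.7 and 92.1 CPM in intact cortex, with 6 of 9 tested higher. Deleted replicate 4 lay within the intact range for meningeal markers, but its endothelial and pericyte sums, 199 and 243 CPM, were above every intact library, as were its Nes and Vim. Without deleted replicates 2 and 3, and with deleted replicate 1 and its 161 CPM of meningeal markers still in, Nes rose by 0.85, Vim by 0.55 and Sox9 by 0.50 on the log2 scale, with adjusted p of 4.05e-05, 4.74e-05 and 4.25e-04 in edgeR's test. The part of vascular and meningeal cells in the Nes and Vim levels was not tested.

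Markers of further cell types varied more within the groups. Those of ependyma and choroid plexus summed to 961, 86.2, 177 and 26.9 CPM in deleted and to 31.0, 36.5, 37.1 and 324 CPM in intact cortex, and the lowest adjusted p among these 8 genes was 0.0818, for Otx2, in edgeR's test. Without deleted replicate 1 and intact replicate 4, which had the highest sums of their groups, Nes rose by 0.86 and Fabp7 fell by 0.47 on the log2 scale, and the Hopx call was lost (adjusted p = 0.0621). The part of these cells in the radial glia gene levels was not tested. Microglial markers summed to 57.5 to 68.3 CPM in deleted and 54.0 to 63.9 CPM in intact cortex, with 3 of 10 higher and 1 lower. That share of rises is near the 30.6% of all genes tested that were called higher. Red blood cell markers summed to 88.0 to 155 CPM in deleted and 86.9 to 103 CPM in intact cortex, with 3 of 6 higher. No gene of any marker list was at 0 in all libraries.

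**Figure D5:**
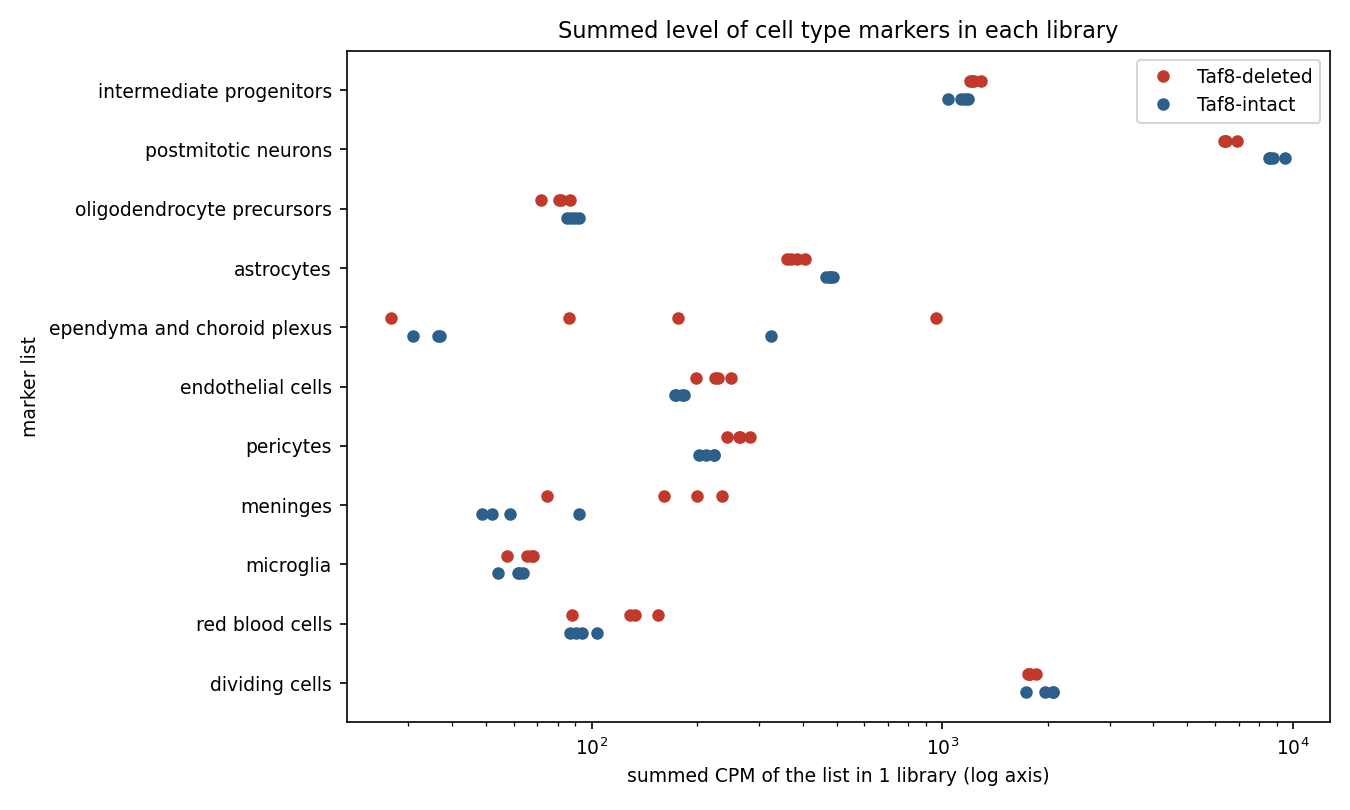
Summed CPM of 11 cell type marker lists (y axis) in each library (x axis, log scale), Taf8-deleted above Taf8-intact. Neuronal and astrocyte sums are lower and intermediate progenitor, endothelial and pericyte sums higher in all deleted libraries, and the ependyma and choroid plexus sum ranges from 26.9 to 961 CPM among deleted libraries.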

How the data were processed

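RNA sequencing of embryonic cerebral cortex was read from a deposited table of raw counts per gene, with 4 Taf8-deleted and 4 Taf8-intact embryos. RNA was isolated with an RNeasy kit and unstranded TruSeq libraries were made, per the labels' protocols. Per the submitters' processing notes, bcl2fastq 1.8.4, Subread 1.5.0, featureCounts and mm10 were used by the authors to make the counts. The 1904 rows with no symbol held 1.13% to 1.64% of counts in deleted and 0.490% to 0.530% in intact libraries.

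Counts were fitted with edgeR 4.0.16 (R 4.3.3): filterByExpr, TMM factors of 0.971 to 1.03, robust quasi-likelihood test, Benjamini-Hochberg adjustment over 16074 genes, threshold 0.05. The biological coefficient of variation was 7.57%. RPKM used the deposited gene lengths. P-values set the difference between the groups against the spread between these embryos. Alternatives were DESeq2 1.42.0, limma 3.58.1, other scalings and filters, and left-out libraries. Overlapping genes and promoters came from RefSeq GRCm38.p6. Named in related lists were the genes with the smallest p, up to 4 a list, plus up to 2 of the other direction. All genes of the Sox, fatty acid binding and glutamate lists could be named, and up to 2 of each marker list. Outside this rule, the 4 intermediate progenitor markers that fell and the filament genes Ina and Nefl were named as well. The members and lists were chosen with earlier results of these data known. Of the glutamate list, 1 gene and the counts over the list are not reported here. The labels name neither stage nor recombinase.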

Additional observations from a re-analysis of the deposited data

Results flagged for a closer look

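Of 58 groups of 4 values examined for a value far from the rest, 7 held one, and chance alone flags about 1 in 20 groups. Of these, 4 are values of intact replicate 3. Its Sox9 level was 111.66 CPM, against 131.67 to 134.44 CPM in the other intact libraries. Its Tnc level was 135.46 CPM, against 96.97 to 100.55 CPM. Its log2 ratio of Vim to Fabp7 was 0.37373, against 0.5799 to 0.60226, and its log2 ratio of Hopx to Tnc was -4.4203, against -3.9125 to -3.8302. Deleted replicate 4 had a summed neuronal marker level of 6932.5 CPM, against 6352.7 to 6434 CPM in the other deleted libraries. The summed ependyma and choroid plexus level was 960.54 CPM in deleted replicate 1, against 26.856 to 176.51 CPM in the other deleted libraries. It was 324.37 CPM in intact replicate 4, against 31.006 to 37.106 CPM in the other intact libraries.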

How the results depend on the processing

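Nes, Vim, Sox9, Fabp7, Slc1a3, Ptprz1 and Tnc kept their direction and their call in the main fit and all 19 alternatives. Sox2, not called in the main fit, was called with upper-quartile factors (0.21, adjusted p = 0.0190), library totals (0.21, adjusted p = 0.0189), the filter of CPM above 1 in 4 libraries (0.18, adjusted p = 0.0342) and DESeq2 (0.16, adjusted p = 0.0290). Prom1 changed sign with upper-quartile factors (0.0232), library totals (0.0270) and without deleted replicates 2 and 3 (0.0111). Hopx was not called without deleted replicates 2 and 3 (0.15) or without intact replicate 4 and deleted replicate 1 (0.26). Leaving out 1 library at a time gave log2 differences of 0.0923 to 0.207 for Sox2, called without intact replicate 2, of -0.0644 to 0.0020 for Prom1, positive without intact replicate 1, and of 0.21 to 0.31 for Hopx, not called without deleted replicate 2 or 3. The cause was not tested. Same-numbered embryos did not deviate together (correlations -0.229, 0.005, -0.000 and -0.455), while deleted replicate 1 and intact replicate 4 had 0.360. With 4 embryos a group these values give no sign of pairing by number and cannot exclude it. With the replicate number as a block Sox2 was called (0.15, adjusted p = 0.0381) and no other radial glia gene changed its call. Upper-quartile factors and library totals moved the median of all genes by 0.058 and 0.062 on the log2 scale. Ratios kept their direction in all 11 alternatives. In 1 of these, the replicate block, the mean difference cannot change, and no blocked test of the ratios was run. The alternatives with left-out libraries were read for direction and size only, without a p. Of 1216 results on 64 other genes, Taf8 included, 1167 kept direction and call, 35 lost a call and 14 gained one. Hopx had the fewest counts of the 10 genes, at 260 to 374.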
